A study of Glycine max with 54 samples.

Results

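LOX1.1, LOX2 and LOX3 encode the seed lipoxygenases of soybean, and they were followed here as the probe sets whose single gene symbol in the array annotation is one of these names. This rule gave 3 of the 6029 genes that have a probe set of their own, and 4 of the 37744 probe sets of the array: 1 for LOX1.1, 1 for LOX2 and 2 for LOX3. The identifier of the second LOX3 probe set ends in s_at, which Affymetrix gives to probe sets whose probes match several transcripts, so part of its signal may come from a related gene. Total RNA of whole developing seeds was hybridized to 54 Affymetrix soybean arrays in 18 groups of 3. The lines were the varieties Archer and Minsoy, each sampled in 2007 and 2008, and a high yield and a low yield recombinant inbred line from their cross, sampled in 2007. All plants were field grown without a treatment, and seeds were taken when they were 2, 3.5 or 5-6 mm long. Per the labels, a line was a single row in 2007, whereas in 2008 it stood in 3 blocks planted at different times and seed from both rows of a block was pooled. Each yield class is 1 line, so a difference between the yield classes belongs to these lines.

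Lipoxygenases are iron enzymes that add oxygen to linoleic and linolenic acid, and the hydroperoxides they make are the source of the grassy, beany flavour of soybean and, in leaves, of jasmonate hormones. In soybean they form a large family. The isozymes named here accumulate in the storage cells of the cotyledon during seed filling, while the vegetative isozymes are found mainly in leaves, pods and seedlings. In the RefSeq gene table for Glycine_max_v4.0, LOX2 and LOX1.1 lie on the same chromosome with only the microRNA gene MIR1532 listed between them. The vegetative lipoxygenase gene LOXB1 comes directly after LOX1.1, and LOX7 after that. LOX3 lies on another chromosome, where 1 gene separates it from VLXB, another vegetative lipoxygenase gene.

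Some arrays did not carry the profile of the seed length on their label. A stage score was computed for each array from 200 probe sets that are higher and 200 that are lower at 5-6 mm in the other sets of arrays, with the seed lipoxygenases and their relatives left out. By this score 9 arrays lay nearer to another length than to their own. Of these, 6 were from the middle length. The other 3 were the libraries labelled Minsoy 2 mm 2008 replicate 1 (score 1.61, against -2.28 and -1.78 in its replicates), Minsoy 5-6 mm 2008 replicate 1 (-1.02, against 1.30 and 2.17) and low yield line 2 mm 2007 replicate 1 (2.86, against -2.34 and -2.66). Most stage changes of the seed lipoxygenases, and some of their line differences, are therefore given with and without these 3 arrays. Correlations, the other lipoxygenase and jasmonate synthesis genes and the tissue markers are given with no array left out. The score and the lipoxygenases both follow seed stage, so leaving out arrays by the score is not independent of the lipoxygenase values. The 3 sets of 18 arrays (parents 2007, parents 2008, recombinant lines 2007) were normalized apart and their levels are compared only within a set. All signals below are on the log2 scale.

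LOX2 is the isozyme most closely tied to beany flavour, and many of its arrays lay at the lowest value a set holds. In the parents of 2007, its signal was 1.96 in all 6 arrays of 2 mm seeds, the lowest value of that set. At the middle length it was 1.96 in the 3 Archer arrays and 1.96, 3.69 and 13.96 in the Minsoy arrays. At 5-6 mm it was 4.23, 14.85 and 13.02 in Archer and 13.44, 15.36 and 14.69 in Minsoy. Every array of 5-6 mm seeds was thus above every array of 2 mm seeds in that year, and Minsoy 3.5 mm replicate 3, one of the arrays scored nearer to 5-6 mm, was as high as the largest seeds. In all, 10 of these 18 arrays lay at the lowest value, so a difference from 2 mm seeds has no exact size.

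In the parents of 2008, LOX2 was at 2.28, 2.03 and 1.96 in 2 mm Archer seeds and at 15.14, 1.96 and 2.03 in 2 mm Minsoy seeds. At 3.5 mm it was 10.66, 2.11 and 2.28 in Archer and 9.18, 2.11 and 7.53 in Minsoy. At 5-6 mm it was 14.77, 13.93 and 13.25 in Archer and 2.03, 14.20 and 15.28 in Minsoy. The groups of 2 mm and 5-6 mm overlapped through the 2 out-of-stage Minsoy arrays alone. Without them the highest value at 2 mm was 2.28 (5 arrays) and the lowest at 5-6 mm was 13.25 (5 arrays).

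In the high yield line, LOX2 was at 7.63, 7.67 and 2.13 at 2 mm, at 2.14, 4.80 and 9.13 at 3.5 mm, and at 12.54, 11.90 and 14.50 at 5-6 mm. In the low yield line it was at 11.88, 2.08 and 2.01, then 2.16, 2.46 and 4.35, then 4.78, 14.35 and 12.55. Replicates 1 and 2 of the 2 mm high yield seeds were well above replicate 3 although their stage scores, -4.49 and -4.53, were the lowest of the set. The 3′ minus 5′ difference of the actin control probe sets, a sign of RNA quality, was 2.31 and 2.32 in these arrays and 1.51 in replicate 3. Over the whole set this difference ran from 1.22 to 3.36, against -0.81 to -0.06 in the parental arrays. Its correlation with LOX2 over the set was negative (r = -0.429, 18 arrays). In high yield line 3.5 mm replicate 1, for example, it was 3.07 with LOX2 at 2.14. The part of RNA quality in the LOX2 signal was not tested. At the other end, the 5-6 mm array of low yield line replicate 1 lay below both of those 2 mm arrays, and with the array out of stage left out the lengths still overlapped in this set (highest 7.67 at 2 mm, lowest 4.78 at 5-6 mm).

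LOX1.1 encodes lipoxygenase-1, known for its alkaline pH optimum. In the parents of 2007 it lay between 2.06 and 2.13 in the 6 arrays of 2 mm seeds. It was 2.13, 2.10 and 1.96 in Archer and 1.96, 2.13 and 8.60 in Minsoy at 3.5 mm. At 5-6 mm it reached 2.13, 13.16 and 9.79 in Archer and 7.55, 15.17 and 13.54 in Minsoy. Archer 5-6 mm replicate 1 stayed at the level of 2 mm seeds, although its stage score of 1.94 was that of its label, so the lengths touched in this set.

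For the same gene in 2008, Archer arrays read 2.01, 2.02 and 2.03 at 2 mm, 5.07, 2.01 and 2.24 at 3.5 mm, and 11.04, 11.07 and 7.49 at 5-6 mm. Minsoy arrays read 11.75, 2.01 and 2.01, then 2.24, 2.01 and 2.24, then 2.10, 8.34 and 12.80. Apart from the arrays out of stage, the 2 mm and 5-6 mm arrays did not overlap (highest 2.03, lowest 7.49). The high yield line gave 5.46, 5.20 and 3.27, then 3.22, 3.29 and 6.72, then 8.88, 7.98 and 11.31 for LOX1.1. The low yield line gave 8.29, 3.29 and 3.23, then 3.40, 3.35 and 3.44, then 3.93, 12.72 and 8.93. As for LOX2, replicate 1 of the 5-6 mm low yield seeds was below the 2 highest arrays of the 2 mm high yield seeds.

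LOX3 encodes lipoxygenase-3, which also bleaches carotenoids. On its second probe set, which stands for the gene in counts of genes because of its higher mean signal, the 2007 Archer arrays read 3.45, 2.79 and 3.27 at 2 mm, 3.39, 3.45 and 6.71 at 3.5 mm, and 8.20, 13.72 and 12.40 at 5-6 mm. The 2007 Minsoy arrays read 2.70, 2.79 and 2.81, then 5.55, 7.58 and 12.68, then 12.10, 14.16 and 14.45. In this set no 5-6 mm array overlapped with a 2 mm array, and the 3 Minsoy arrays of the middle length lay above all 2 mm arrays.

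In 2008 this LOX3 probe set was at 4.21, 3.26 and 3.29, then 10.52, 5.32 and 6.40, then 13.75, 13.49 and 12.57 in Archer. It was at 13.85, 3.25 and 3.35, then 9.49, 6.63 and 8.26, then 4.03, 13.39 and 14.00 in Minsoy. Leaving aside the Minsoy replicates 1 of 2 mm and 5-6 mm, all 6 arrays of 3.5 mm seeds lay above the 2 mm arrays (highest 4.21) and below the 5-6 mm arrays (lowest 12.57). In the recombinant lines it was 8.90, 8.96 and 5.69, then 6.45, 7.55 and 11.86, then 12.91, 12.92 and 14.61 in the high yield line, and 12.93, 5.62 and 2.91, then 6.97, 7.59 and 10.03, then 8.90, 14.57 and 12.85 in the low yield line. Here replicate 2 of the 2 mm high yield seeds (8.96) lay just above replicate 1 of the 5-6 mm low yield seeds (8.90).

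The first LOX3 probe set was also high mainly in 5-6 mm seeds. In the parents of 2007 it ran from 1.96 to 2.13 in 2 mm seeds, was 2.11, 2.19 and 2.95 in Archer and 2.95, 4.002 and 10.90 in Minsoy at 3.5 mm, and was 5.42, 12.02 and 10.38 in Archer and 9.92, 14.01 and 13.76 in Minsoy at 5-6 mm. In 2008 the 5-6 mm arrays read 12.14, 11.24 and 9.93 in Archer and 2.56, 11.54 and 13.22 in Minsoy, against 1.99 to 2.03 in 2 mm seeds apart from 12.97 in Minsoy replicate 1. In the recombinant lines, without the array out of stage, the highest value at 2 mm was 5.17 and the lowest at 5-6 mm was 5.41. This probe set was the only one of the 4 with no overlap there, by a narrow gap. Overlap was not counted over all probe sets, so its absence, here and in the paragraphs above, only describes these probe sets. From 2 mm to 5-6 mm, 62.5% of all probe sets tested were called in either direction. Over the arrays, the first and the second probe set were correlated at r = 0.975 in the parents of 2007, 0.983 in those of 2008 and 0.953 in the recombinant lines (18 arrays each, which share a stage difference).

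**Figure D1:**
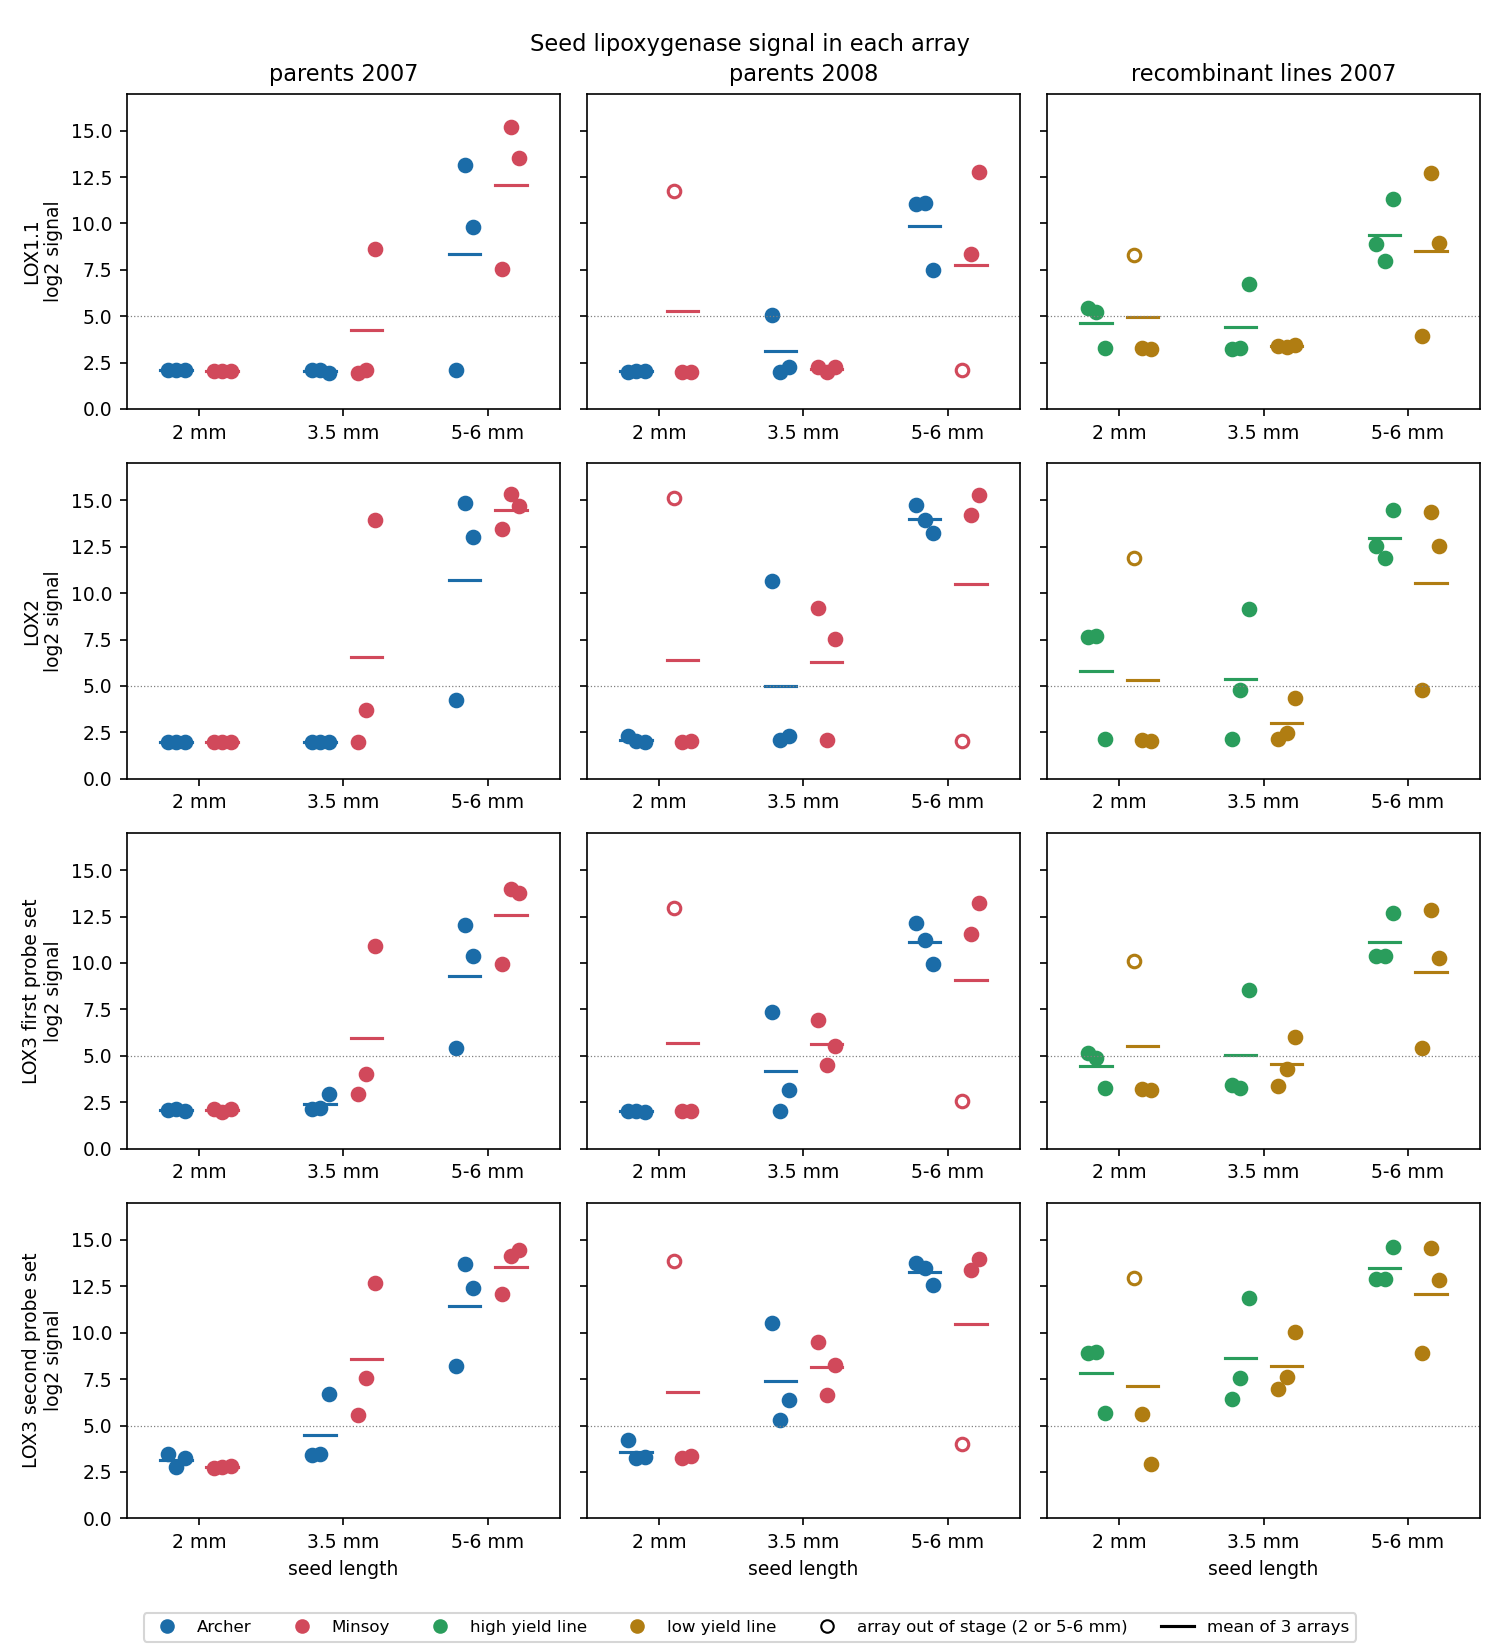
Log2 signal (vertical axis) of the 4 seed lipoxygenase probe sets against seed length in each set of 18 arrays. Each point is 1 array, bars are means of 3 arrays, open points are the 3 arrays out of stage, and the dotted line marks the log2 level of 5 used for filtering; LOX2 lies at 1.96 in all 2 mm arrays of the parents of 2007 and at 13.02 to 15.36 in 5 of the 6 arrays of 5-6 mm.

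All 4 probe sets passed the filter on low signal (log2 of 5 or more in at least 3 arrays), but only through their high arrays, so some difference between arrays was given by the filter. The number of arrays at or above log2 5, of 18 at each length, was 4, 3 and 15 at 2, 3.5 and 5-6 mm for LOX1.1 and 4, 5 and 15 for LOX2. For LOX3 it was 3, 6 and 17 on the first probe set and 6, 16 and 17 on the second. Because the 2 probe sets of LOX3 itself differ by 10 arrays at 3.5 mm, these counts do not order the genes in time.

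From 2 mm to 5-6 mm the transcripts of all 3 genes rose. Averaged over the 6 combinations of line and year, the log2 difference was 5.82 for LOX1.1 (SE 0.99, limma adjusted p = 3.75e-06), 8.28 for LOX2 (SE 1.34, adjusted p = 1.84e-06), and 6.82 (SE 0.98, adjusted p = 1.97e-07) and 7.17 (SE 0.95, adjusted p = 5.24e-08) for LOX3 (18 arrays at each length). The call, an adjusted p under 0.05, was made for 4 of 4 probe sets, where 25.5% of the 26482 probe sets tested were called higher. The median difference was 6.995 over the 4 probe sets and -0.06 over all tested. In the parents, most 2 mm signals of LOX1.1, LOX2 and the first LOX3 probe set lay at or near the lowest value of their set. The sizes are therefore not exact. Without the 3 arrays out of stage the differences were 7.11 (SE 0.85), 10.27 (SE 1.08), 8.36 (SE 0.73) and 8.77 (SE 0.67), with adjusted p between 1.18e-13 and 4.90e-09. The share of all probe sets called higher is not given for this mean without the 3 arrays. In seeds sampled whole, more cells of a type and more RNA per cell cannot be told apart.

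Most of this rise came between 3.5 mm and 5-6 mm. Over that step the differences were 6.10 for LOX1.1 (adjusted p = 1.26e-05), 7.52 for LOX2 (3.52e-05), and 5.82 (1.78e-05) and 4.81 (0.000113) for LOX3, again with 4 of 4 called where 21.8% of all probe sets were called higher. Between 2 mm and 3.5 mm they were -0.28 (SE 0.99, limma adjusted p = 0.860) for LOX1.1, 0.77 (SE 1.34, 0.704) for LOX2, and 1.01 (SE 0.98, 0.466) and 2.36 (SE 0.95, 0.0607) for LOX3. Here 0 of 4 were called by limma, against 14.2% of all probe sets called higher, and 1 had an unadjusted p under 0.05. This early step depended on the arrays out of stage. Without the 3, LOX3 rose by 2.00 (SE 0.72, adjusted p = 0.0275) on the first probe set and by 3.42 (SE 0.66, adjusted p = 8.39e-05) on the second. LOX1.1 (0.54, 95% interval -1.16 to 2.24) and LOX2 (2.04, -0.11 to 4.20) were not called. The share of all probe sets called higher in this step without the 3 is not given. The 14.2% comes from all arrays, so whether the LOX3 calls stand out from other probe sets is not shown.

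Each line and year showed a higher mean at 5-6 mm than at 2 mm for every probe set, that is in 24 of 24 comparisons, of which 13 were called. In Archer 2007 the log2 difference was 6.24 for LOX1.1 (adjusted p = 0.0471) and 8.74 for LOX2 (0.0413), and 4 of 4 probe sets were called, where 12.9% of all were called higher. With the replicate number as a block, LOX1.1 (0.0525) and LOX2 (0.0502) were not called there. Minsoy 2007 gave 10.02 and 12.54 (4 of 4 called, 18.4% of all), and Archer 2008 gave 7.85 and 11.89 (4 of 4 called, 5.66% of all).

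The other combinations were those with a 2 mm or 5-6 mm array out of stage, and the high yield line. In Minsoy 2008 the difference was 2.49 for LOX1.1 and 4.13 for LOX2 (95% interval -2.53 to 10.78), with 0 of 4 called by limma, 0 at an unadjusted p under 0.05, and 0% of all probe sets called higher. With replicate 1 of both lengths left out these became 8.56 (adjusted p = 0.0105) and 12.74 (0.00319), and 4 of 4 were called against 10.1% of all. In the low yield line they were 3.59 and 5.24 (-1.42 to 11.89), 0 of 4 called by limma (1 unadjusted) against 0.102% of all, and without its replicate 1 of 2 mm they were 5.27 (adjusted p = 0.089) and 8.51 (0.0278), with 7.72% of all called higher. The high yield line, which kept all its arrays, had 4.75 for LOX1.1 and 7.17 for LOX2, and only LOX3 on its first probe set was called (6.71, adjusted p = 0.0239), against 15.8% of all. Over the 6 combinations, 22 of 24 comparisons were called without the 3 arrays, the exceptions being LOX1.1 in either recombinant line. The high yield line lost no array, so its further calls came with the spread estimated over all groups and the adjustment, not with its values. Shares of all probe sets without the 3 arrays are given here for Minsoy 2008 and the low yield line only. The 22 calls are therefore not set against a share.

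The separate steps were also tested within each line and year, with 3 arrays on each side. As in all contrasts, 1 estimate of spread per probe set was shared by the 18 groups. For LOX2 the SD within a group ran from 0 (Archer 2 mm 2007) to 7.59 (Minsoy 2 mm 2008). Intervals and calls in groups of little spread thus also carry the spread of other groups. From 2 mm to 3.5 mm the mean was higher in 14 of 24 comparisons, but 0 were called by limma and 1 had an unadjusted p under 0.05, LOX3 on its second probe set in Minsoy 2007 (5.84, adjusted p = 0.111). The share of all probe sets called higher in this step was 2.07% in Archer 2007, 5.23% in Minsoy 2007, 0% in either parent in 2008, 7.26% in the high yield line and 4.37% in the low yield line. From 3.5 mm to 5-6 mm the mean was higher in 24 of 24 comparisons and 2 were called, LOX1.1 in Minsoy 2007 (7.86, adjusted p = 0.0293, where 3.38% of all were called higher) and LOX3 on its first probe set in the high yield line (6.08, adjusted p = 0.0385, 16.1% of all). The share of all probe sets called higher in this later step was 0% in Archer 2007 and Minsoy 2008, 0.00378% in Archer 2008 and 14.0% in the low yield line. Without the 3 arrays, 1 of 24 comparisons was called in the earlier step, where 0% to 9.51% of all probe sets were called higher in a line and year, and 16 in the later one, where 0.0793% to 18.2% were.

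**Figure D2:**
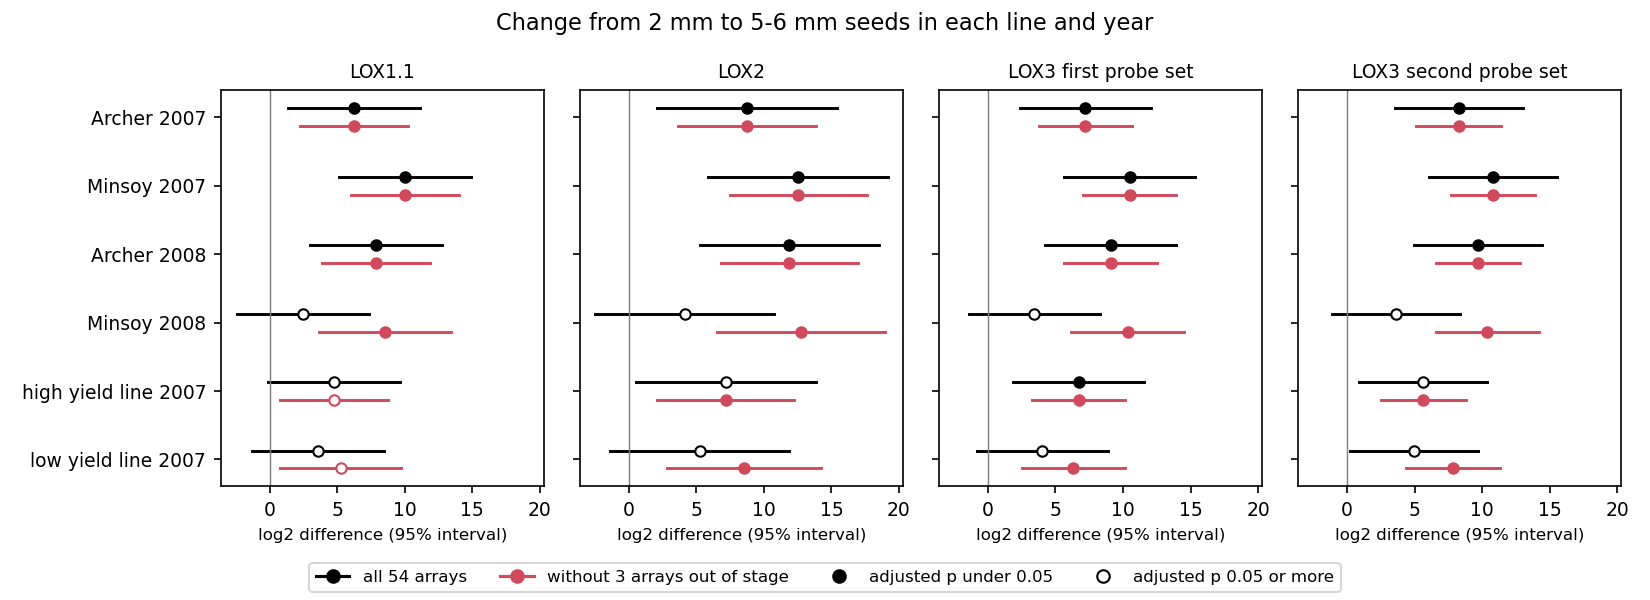
Log2 difference between 5-6 mm and 2 mm seeds (horizontal axis, with 95% interval) in each line and year for the 4 probe sets, from all 54 arrays (black) and without the 3 arrays out of stage (red); filled points have an adjusted p under 0.05. All points lie to the right of 0, and the black points of Minsoy 2008 are at 2.49 to 4.13 where the red ones are at 8.56 to 12.74.

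Taken within sets, the mean rise of both lines was called for all 4 probe sets in the parents of 2007 (LOX2 10.64, SE 2.33; 22.6% of all called higher), the parents of 2008 (LOX2 8.01, SE 2.33; 6.00%) and the recombinant lines (LOX2 6.20, SE 2.33; 15.3%). LOX1.1 was the gene closest to the threshold, with an adjusted p of 0.0440 in the parents of 2008 and 0.0494 in the recombinant lines, and with the replicate number as a block it passed in neither (0.0537 and 0.0544). The number is a planting block in 2008 only. The later step, from 3.5 mm to 5-6 mm, was not called in the parents of 2008 for any of the 4 (differences 4.10 to 6.60, limma adjusted p = 0.494 to 0.495, 4 at an unadjusted p under 0.05, 0% of all called higher). Without the 3 arrays it was called for all 4 (5.71 to 8.72, adjusted p = 0.00157 to 0.00404, 5.36% of all), as it was without the 9 arrays (5.49 to 8.35, adjusted p = 0.00280 to 0.00805, 3.64% of all).

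The signals of the 3 genes were strongly correlated over the arrays, although they did not pass log2 5 in the same ones. In Minsoy 3.5 mm 2008 replicate 1, for example, LOX1.1 was at 2.24, LOX2 at 9.18 and the second LOX3 probe set at 9.49. Relative to the mean of its set, LOX2 correlated with the first LOX3 probe set at r = 0.979 and LOX1.1 with LOX2 at r = 0.937 over the 54 arrays, which share libraries and a strong stage difference. With the stage score the correlation of LOX2 was 0.733 in the parents of 2007, 0.895 in those of 2008 and 0.645 in the recombinant lines (18 arrays each). At scores close to each other the lipoxygenases could differ widely. In the parents of 2007, Archer 5-6 mm replicate 1 (score 1.94) had LOX2 at 4.23 and LOX1.1 at 2.13, whereas Archer 5-6 mm replicate 3 (2.11) had them at 13.02 and 9.79.

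**Figure D3:**
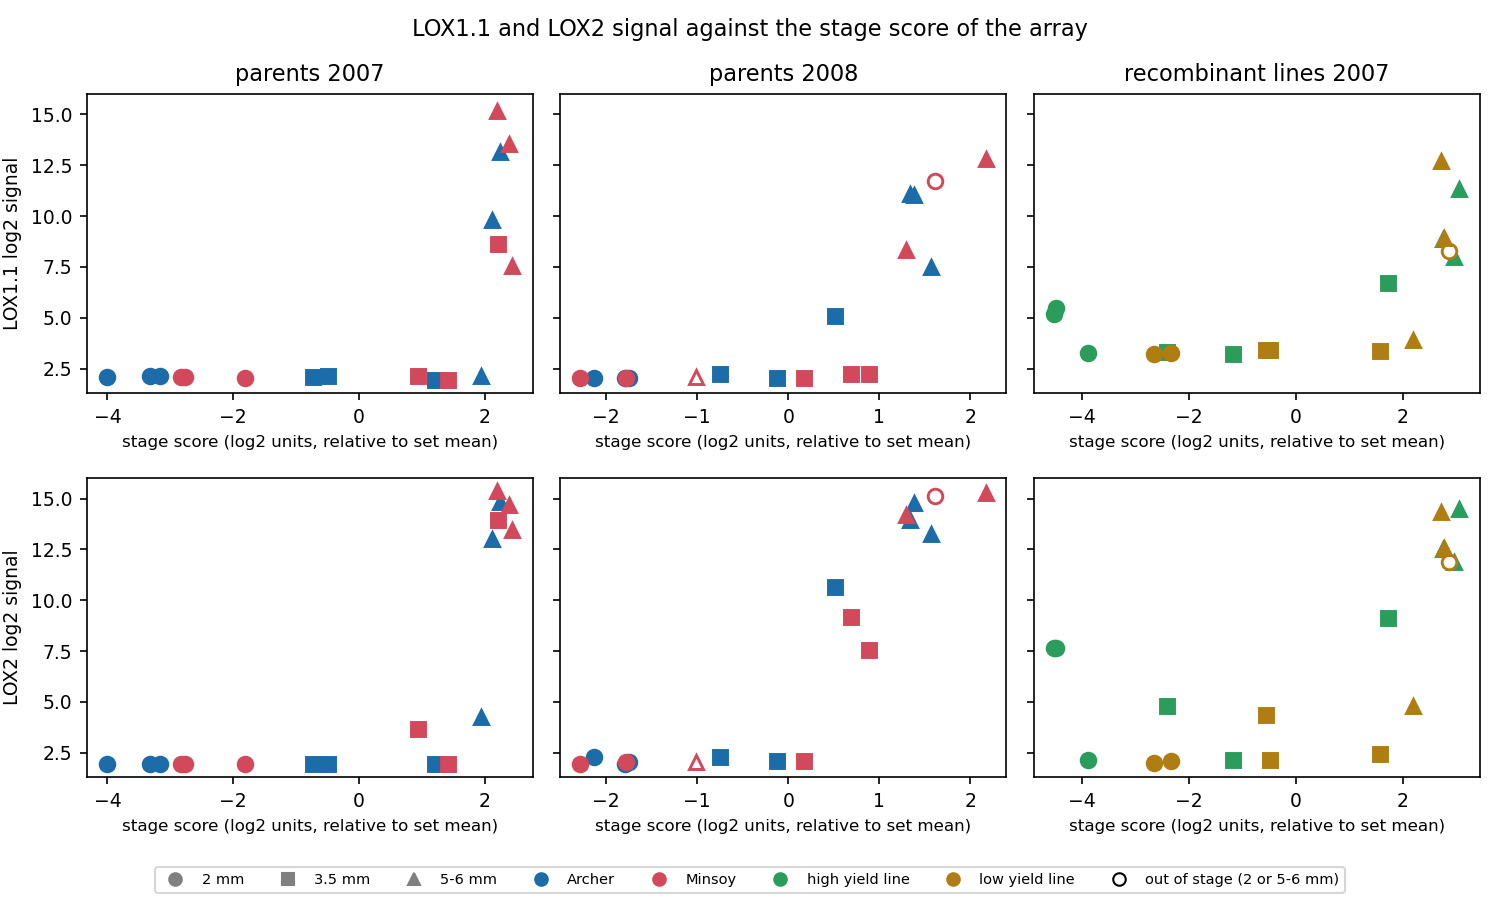
Log2 signal of LOX1.1 (upper row) and LOX2 (lower row) against the stage score of the array, in log2 units relative to the set mean; circles, squares and triangles are 2, 3.5 and 5-6 mm, colours are lines and open points are the 3 arrays out of stage. In the parents of 2007, LOX2 was below 5 in all arrays with a score under 2 and above 13 in those with a higher score.

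Among 6958 tested probe sets with 1 gene symbol, those with the pattern most like that of each seed lipoxygenase over the 54 arrays were taken. The 5 nearest to LOX2 were both probe sets of P34, a vacuolar thiol protease homologue and seed allergen (r = 0.993 and 0.991), both of GY2 (0.989 and 0.985) and 1 of GY1 (0.982), glycinin storage globulins. LOX1.1 was nearest to another glycinin gene, GY5 (0.964), followed by LOC100777331, LOC100527919, the seed maturation gene PM1 (0.960) and LOC547942. LOX3 was nearest to the 2S albumin gene GM2S-1 (0.978), followed by LOC100305847, LOC100787186, the Bowman-Birk inhibitor D-II (0.969) and the isoflavone synthase IFS2 (0.964). These are descriptions over arrays that share a stage difference.

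No difference between lines was called for a seed lipoxygenase. Averaged over lengths and years, Archer minus Minsoy was -1.002 for LOX1.1 (95% interval -2.996 to 0.99), -1.74 for LOX2 (-4.46 to 0.98), and -1.66 (-3.63 to 0.32) and -1.16 (-3.09 to 0.77) for LOX3. The lowest limma adjusted p was 0.298, 0 of 4 had an unadjusted p under 0.05, and 9.93% of all probe sets were called. High minus low yield line was 0.53 for LOX1.1 (-2.29 to 3.35), 1.76 for LOX2 (-2.09 to 5.60), and 0.36 (-2.44 to 3.15) and 0.83 (-1.90 to 3.56) for LOX3, again with 0 of 4 called by limma, 0 unadjusted, and 5.37% of all probe sets called. These intervals span several log2 units, so the arrays do not show that the lines are alike.

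By length, Archer minus Minsoy at 3.5 mm in 2007 was -4.58 for LOX2 (-11.23 to 2.08) and -4.09 for the second LOX3 probe set (-8.82 to 0.65). These values rested on Minsoy replicate 3, one of the 9 arrays out of stage, and without the 9 they were -0.87 (-5.85 to 4.12) and -2.05 (-5.19 to 1.09). At 5-6 mm in 2007, where no array was out of stage, the difference was -3.73 for LOX1.1 (-8.61 to 1.16), -3.79 for LOX2 (-10.45 to 2.86), and -3.29 and -2.13 for LOX3. These values leaned on Archer replicate 1, with LOX1.1 at 2.13 and LOX2 at 4.23. Its replicates had LOX1.1 at 13.16 and 9.79 (7.55 to 15.17 in Minsoy). They had LOX2 at 14.85 and 13.02 (13.44 to 15.36 in Minsoy). In 2008 the differences at 2 mm and 5-6 mm rested on the Minsoy arrays out of stage. For LOX2 at 5-6 mm, Archer minus Minsoy was 3.48 with them and -0.75 (-6.43 to 4.92) without, and at 2 mm -4.29 with and 0.09 without. Of 24 comparisons of the parents at a length and year, 0 were called by limma and 0 had an unadjusted p under 0.05. The share of all probe sets called was 2.08%, 1.47% and 6.91% at 2, 3.5 and 5-6 mm in 2007 and 0.717%, 0.589% and 0.914% in 2008. For the recombinant lines it was 0 of 12 by limma and 0 unadjusted, where 7.87%, 1.66% and 0% of all probe sets were called.

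**Figure D4:**
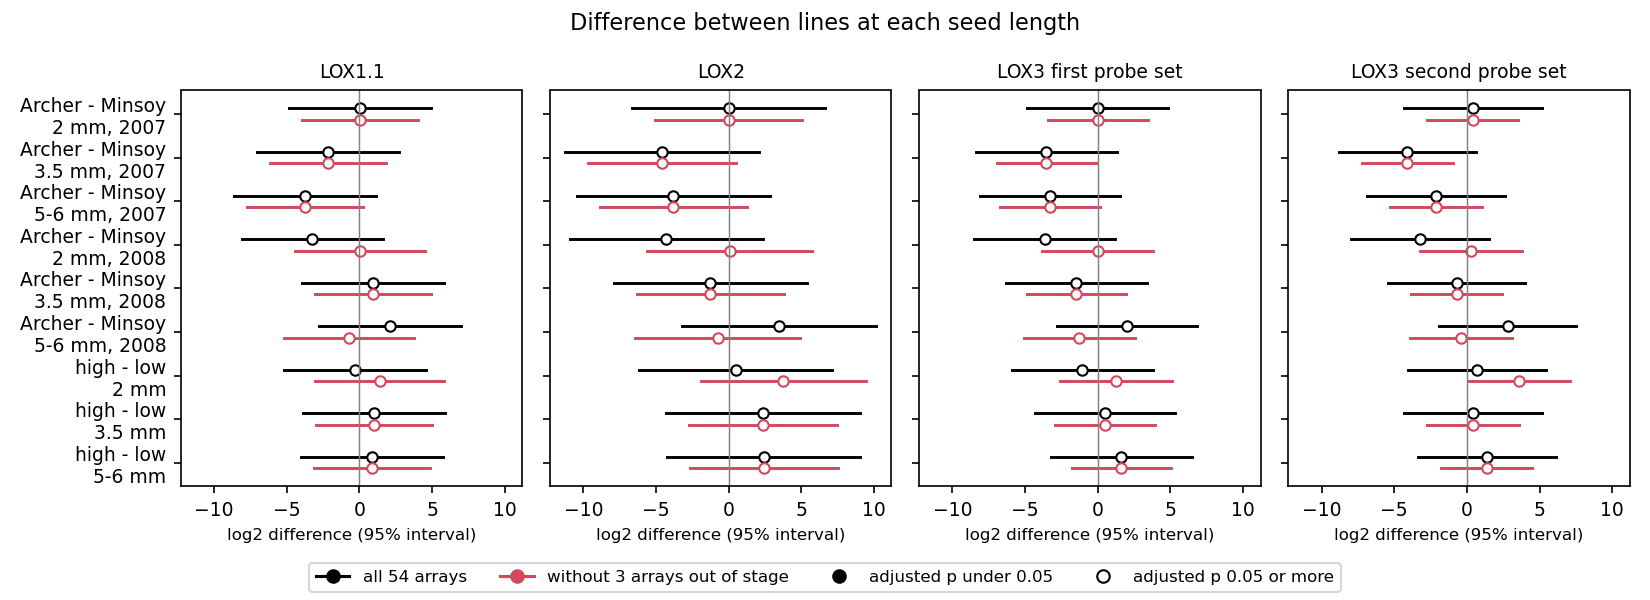
Log2 difference between lines (horizontal axis, with 95% interval) at each seed length for the 4 probe sets, Archer minus Minsoy in each year and high minus low yield line, from all 54 arrays (black) and without the 3 arrays out of stage (red). No point is filled, that is none has an adjusted p under 0.05, and the LOX2 difference at 5-6 mm in 2008 moves from 3.48 to -0.75.

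The size of the stage change did not differ detectably between the lines of a set. For 5-6 mm against 2 mm, the change in Archer minus that in Minsoy was -3.79 for LOX2 in 2007 (95% interval -13.21 to 5.62). This value too leaned on Archer 5-6 mm replicate 1. In 2008 the LOX2 change in Archer minus that in Minsoy was 7.77 (-1.65 to 17.18) with all arrays. Without those out of stage it was -0.85 (-8.88 to 7.18). Over 36 such tests of 3 stage steps and 3 pairs of lines, 0 were called by limma and 0 had an unadjusted p under 0.05, against 1.18% of all probe sets for 5-6 mm against 2 mm in the recombinant lines and 0.136% in the parents of 2007. For 3.5 mm against 2 mm these shares were 0.389% and 0.0264%, for 5-6 mm against 3.5 mm 0.0189% and 0%, and in the parents of 2008 0% for each step. Nor did the Archer minus Minsoy difference change by year in any of 12 tests (0 called by limma, 0 unadjusted, against 0.257%, 0.132% and 0.234% of all probe sets at 2, 3.5 and 5-6 mm).

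Most other lipoxygenase and jasmonate synthesis genes of the array fell over the same interval. Of 11 such genes with a probe set of their own, 10 were tested (LOX10 was below the filter). From 2 mm to 5-6 mm, 9 fell and 1 rose, with a median of -0.86, against -0.06 over all probe sets tested, of which 37.0% were called lower and 25.5% higher. LOXB1, the neighbour of LOX1.1, fell by 4.49 (SE 0.61, limma adjusted p = 8.09e-08), and its other tested probe sets fell by 3.61 and 2.03. VLXB, near LOX3, fell by 2.30 (SE 0.27, adjusted p = 3.20e-09) and VLXC, likewise a vegetative lipoxygenase, by 2.14 (SE 0.32, adjusted p = 4.77e-07).

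The gene that rose was AOS1, an allene oxide synthase of the jasmonate pathway, by 0.57 (SE 0.12, adjusted p = 0.000102). From 3.5 mm to 5-6 mm all 10 tested genes fell (median -1.02), where 33.4% of all probe sets were called lower, counting each gene by the probe set with the highest mean signal. Other probe sets of AOS1 (0.25), LOX9 (-0.20) and LOXB1 (-0.80) were not called there. From 2 mm to 3.5 mm 2 rose, 1 fell and 7 were not called, where 14.2% of all were called higher and 13.5% lower. A probe set annotated to VLXB, LOX7 and LOXB1 together was left out, and sequence shared within the family may add signal from one member to the probe sets of another. Between lines, the allene oxide synthase AOS2 was higher in Archer than in Minsoy by 0.38 (SE 0.10, limma adjusted p = 0.0138) and AOS1 was lower in the high than in the low yield line (-0.98, SE 0.17, adjusted p = 0.000148), and the other 9 genes were not called in either case. A share of 1 in 10 genes is close to the 9.93% of all probe sets called between the varieties, and 5.37% were called between the yield lines.

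**Figure D5:**
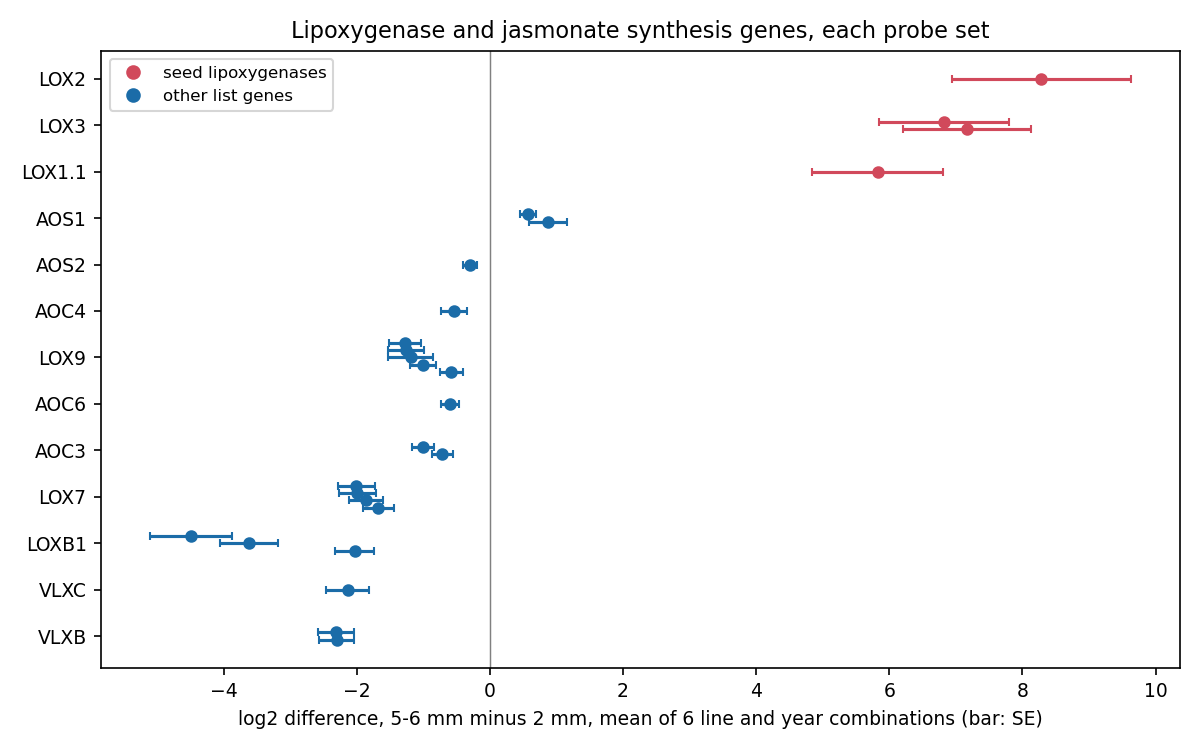
Log2 difference between 5-6 mm and 2 mm seeds, mean of 6 line and year combinations, for each tested probe set of the seed lipoxygenases (red) and of the other lipoxygenase and jasmonate synthesis genes (blue); bars are SE and filled points have an adjusted p under 0.05. The seed lipoxygenases lie between 5.82 and 8.28, AOS1 is the only other gene above 0, and LOXB1 reaches -4.49.

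Markers of seed tissues were set beside these changes. All 11 measured genes of storage filling in the cotyledon rose from 2 mm to 5-6 mm (median 7.48). Of all probe sets tested, 25.5% were called higher and 37.0% lower over this interval. The mean signal of the storage genes ran from 3.27 to 14.18 among the 2 mm Minsoy arrays of 2008. It ran from 4.67 to 14.26 among those of 5-6 mm, so it was spread there as the lipoxygenases were. Of 3 seed coat genes 2 rose and 1 fell, of 3 leaf and pod storage genes (VLXB and VLXC are also in the list above) 1 rose and 2 fell, and of 3 photosynthesis genes 1 rose and 1 fell. Lists of 3 genes are too short to set such counts apart from the shares of all probe sets. The gene that rose among the leaf and pod storage genes was VSPA, whose probe sets did not all have the same direction. The mean of the seed coat genes lay between 7.87 and 14.67 in all groups. SCB1, with a mean signal of 16.11 over all arrays, held this mean up, so it does not show the level of the other seed coat genes. From 2 mm to 5-6 mm HPS rose by 3.42 and Ep by 2.19, and SCB1 fell by 0.31. The part of tissue make-up in the lipoxygenase changes was not tested.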

How the data were processed

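The deposited values are log2 signals per probe set that the authors made with GCRMA, per the submitters' processing notes (version not given in the sources used here). Normalization was done separately for 3 sets of 18 arrays, as their lowest values show (1.95864 in every parental array of 2007, 1.96162 in every one of 2008, no shared value in the recombinant lines). Contrasts were therefore taken within sets. With R 4.3.3 and limma 3.58.1, the means of 18 groups were fitted to 54 arrays and contrasts were tested with eBayes. P-values were adjusted by Benjamini-Hochberg over 26482 probe sets with log2 of 5 or more in at least 3 arrays, leaving out 174 control probe sets, at a threshold of 0.05. The fit was also run on simulated data with normal noise of equal spread in all arrays of a probe set. These data had no shared lowest value and no arrays out of stage. The simulation therefore cannot show how the fit behaves for probe sets such as LOX2. All intervals are at 95%. Precision is limited by 3 arrays per group and by the spread of each probe set being shared over all groups. Per the labels a line was a single row in 2007, so the spread of the 2007 replicates holds no spread between rows and may be partly technical.

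Gene names come from the array annotation given (8677 probe sets with 1 gene), and all 3 genes were matched to RefSeq by gene ID. No genome build is named for the arrays. Positions in the RefSeq gene table were used only for the order of neighbouring genes, and no sequences were used here. All members are described. In the list of other lipoxygenase and jasmonate synthesis genes, chosen by symbol, at most the 3 largest rises and the 3 largest falls are given with values, beside calls between lines, which were named after their values were seen. The 5 most alike probe sets per gene were taken by Pearson correlation. The members and lists were chosen with earlier results of these data known. For 1 array, replicate 3 of 3.5 mm seeds of the low yield line, the sample title was followed where the description named the other line. No arrays were identical (highest correlation 0.997). Per the labels, a replicate number of 2008 is a planting block and so pairs arrays; residuals with the same number correlated between -0.25 and 0.48 there. In 2007 the numbers have no stated meaning (-0.47 to 0.55 in the parents, -0.22 to 0.51 in the recombinant lines). Alternatives were other filters, normalizations, variance models, array weights, the replicate block, each set alone and leaving out arrays; leaving out the 3 arrays of 2 mm or 5-6 mm seeds out of stage was added after seeing the data.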

Additional observations from a re-analysis of the deposited data

How the results depend on the processing

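The call of all 4 probe sets from 2 mm to 5-6 mm, and from 3.5 mm to 5-6 mm, held when any of the 54 arrays was left out, and in 11 of 12 other alternatives. The exception was the parents of 2008 fitted alone, with 0 calls in either step. The step from 2 mm to 3.5 mm, with 0 calls, had 1 with array weights, without the 9 arrays out of stage and in the parents of 2007 alone, and 2 without the 3 arrays. The 2 calls without the 3 arrays are not set against a share of all probe sets. Leaving out 1 array gave 0 to 1, the 1 arising without replicate 1 of Minsoy 3.5 mm 2007, Minsoy 2 mm 2008, Minsoy 5-6 mm 2008 or low yield line 2 mm. The LOX1.1 difference in that step, -0.28, became 0.049 without the 9 arrays, 0.54 without the 3, and 1.06 in the parents of 2007, and lay between -0.64 and 0.26 with 1 array left out. In the recombinant lines alone it was -1.39 for LOX2 and -0.16 for LOX3 on its first probe set. High minus low yield line lay between -0.24 and 1.23 for LOX1.1 and between -0.33 and 1.13 for that LOX3 probe set with 1 array left out.

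Calls within lines and years, 15 of 72, were 39 without the 3 or the 9 arrays, 52 with array weights, and 10 to 20 with 1 array left out. Array weights, whose estimation did not fully converge, also gave 1 call in the mean of high against low yield line, 2 in Archer against Minsoy by length and year, 2 in high against low yield line by length and 1 in the difference of stage changes. They raised calls over all probe sets too (8082 against 1421 for the mean of the yield lines). Shares of all probe sets within lines and years, by length or for differences of stage changes are not given for this setting. With the replicate block, calls within lines and years were 13, and beyond the losses given beside the results no call of a stage step changed (LOX2 from 2 mm to 5-6 mm, adjusted p = 5.64e-06).

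Over all probe sets, counts moved by over 1.5 times with array weights (16670 from 2 mm to 3.5 mm against 7335, 8160 for Archer against Minsoy against 2630, 8082 for the yield lines against 1421). They also moved in sets fitted alone. The parents of 2008 had 1213, 74 and 0 calls for the steps 2 to 5-6, 2 to 3.5 and 3.5 to 5-6 mm. The recombinant lines had 7161 and 474 for the first and the second of these and 448 between lines, and the parents of 2007 had 6352 for the last. The cause was not tested, beyond the fewer arrays in sets fitted alone. Signals at the lowest value of a set limit the size of the rise of LOX2 from 2 mm seeds in the parents of 2007. LOX1.1 (2.06 to 2.13) and the first LOX3 probe set (1.96 to 2.13) lay close to that value there. In 2008, apart from Minsoy replicate 1, the highest 2 mm signals of LOX1.1, LOX2 and this LOX3 probe set were 2.03, 2.28 and 2.03. The lowest value of that set was 1.96, so the size of these rises is limited in the same way.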
